A study of Mus musculus with 18 samples.

Results

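The CXC chemokines are small secreted proteins that guide leukocytes, and mRNA of 9 of them was followed in bone marrow-derived macrophages (BMDMs) with and without prolyl endopeptidase, the enzyme encoded by Prep. The members were listed by symbol as the neutrophil-attracting Cxcl1, Cxcl2, Cxcl3 and Cxcl5, the interferon-induced Cxcl9, Cxcl10 and Cxcl11, and Cxcl14 and Cxcl16. The count table held a row for 8 of these 9 symbols among 16314 symbols in all, and Cxcl11 was not analysed here. The members were chosen by the knockout difference measured in the M1 state, where Cxcl3 was among the genes with the largest falls, so the M1 knockout values are given as a description without a test.

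Chemokines of the first class carry a glutamate-leucine-arginine motif before their paired cysteines and act on the receptor Cxcr2, through which neutrophils are drawn out of blood into inflamed tissue. Those of the second class lack that motif and act on Cxcr3 of activated T cells and NK cells. Macrophages exposed to lipopolysaccharide (LPS) make both, the first class largely through NF-kB downstream of the receptor Tlr4 and the second through interferon released by the same cells, which acts through STAT and IRF factors. Cxcl14 is a chemokine of resting tissues, and Cxcl16 is made as a membrane protein that binds Cxcr6 and takes up oxidized lipoprotein.

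Bone marrow cells from femora of Prep-/- mice and of their Prep+/- littermates, both on a C57BL6/J background, were grown with M-CSF at 50 ng/ml for 7 days. The BMDMs were then left untreated (M0), given 50 ng/ml LPS for 24 h (M1), or given 20 ng/ml IL-4 with 20 ng/ml IL-13 for 24 h (M2), which made 6 groups of 3 libraries each. The control cells were heterozygous, so every group carried at least one disrupted Prep allele, no wild-type cells were among the samples, and the loss in Prep-/- mice was not restricted to macrophages. Each group was stated to hold biological replicates, but no source used here says whether they came from separate animals, so the p-values measure the spread between these libraries.

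Library totals lay between 19068237 and 22598279 counts. Prep itself had 551 to 900 normalized counts in Prep+/- and 31.3 to 68.1 in Prep-/- libraries, where a normalized count is a read count brought to the mean effective library size. The 8 markers of macrophages had reads in all 18 libraries, at a sum of 10027 to 48180 CPM, the count scaled to a common library total. Lyz2 was the largest part of this sum, at 6501 to 39295 CPM, while Fcgr1 went down to 13.4 and Cd14 to 43.2 CPM. The sum, which mainly follows Lyz2, was higher in Prep-/- than in Prep+/- libraries without overlap in M0 (30386 to 48180 against 19002 to 22408 CPM) and in M2 (13889 to 19565 against 10027 to 12203 CPM). It was lower in M1 (31000 to 37043 against 45757 to 47208 CPM). The sum of 12 granulocyte markers was higher in Prep-/- than in Prep+/- libraries without overlap in M0 (124 to 275 against 46.9 to 63.5 CPM) and in M2 (134 to 316 against 59.6 to 82.5 CPM), and the ranges overlapped in M1 (183 to 230 against 151 to 202 CPM). The sum of 9 stromal markers was 27.0 to 30.6 CPM in Prep+/- M1 and 11.6 to 25.6 CPM in Prep-/- M1. That of 5 endothelial markers was higher in Prep-/- than in Prep+/- libraries in M1 (27.1 to 48.5 against 17.0 to 22.1 CPM) and in M2 (252 to 333 against 118 to 167 CPM). These markers did not move together from M0 to M2. Vwf rose by 3.27 on the log2 scale in Prep-/- and by 2.07 in Prep+/- BMDMs, and Pecam1 by 1.41 and 4.47. Cdh5 had log2 fold changes of -0.11 and -0.19, and Kdr of -0.57 and -0.69. The part of these markers in the chemokine results was not tested. Replicate 3 of Prep-/- M0 and replicate 3 of Prep-/- M2 stood apart from their own replicates, with a chi-square per degree of freedom of 111 to 120 in pairs with them against 9.87 to 49.1 in all other pairs. Some results resting on them are also given without them. Results for the CXC receptors and for the gene lists of pathways are given with all libraries only.

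The position of these genes was not used in choosing them. All 4 neutrophil-attracting members lay on the plus strand of chromosome 5 of GRCm39, within 146612 bases from 90907186 to 91053797. Cxcl5 was at 90907186 to 90909483, Cxcl3 at 90933962 to 90937459, Cxcl1 at 91039094 to 91040974 and Cxcl2 at 91051730 to 91053797. The table held 3 further genes inside this stretch, all of them chemokines: Ppbp at 90916371 to 90917930, Pf4 at 90918479 to 90922110, and Cxcl15 at 90942393 to 90950926, which had at most 2 counts in any library. Cxcl9 (92469206 to 92475945) and Cxcl10 (92494497 to 92496748) lay on the minus strand of the same chromosome beside Cxcl11 (92507403 to 92513344). Cxcl14 was on chromosome 13 at 56436352 to 56444603 and Cxcl16 on chromosome 11 at 70344517 to 70352620, both on the minus strand. All of these were annotated as protein-coding by GENCODE, whereas RefSeq listed Cxcl11 as a transcribed pseudogene.

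Some counts can be shared between loci. Transcripts of Cxcl2 and Cxcl3 were 90.7% identical over 550 bases, and how reads matching both were assigned is not given in the sources used here, nor is the strand setting of the counting. Art3, which overlaps Cxcl10 on the opposite strand, had at most 6 counts in any library against up to 34824 for Cxcl10. Zmynd15 and Med11 overlap Cxcl16 on the opposite strand. Zmynd15 had 49.2 to 76.8 normalized counts in Prep+/- M0 and 87.9 to 423 in Prep-/- M0. Med11 had means of 749 in Prep+/- and 794 in Prep-/- M0, and of 606 and 590 in M2. The means of Cxcl16 were 1727 and 4026 in M0, and 337 and 902 in M2. A part of the Cxcl16 values could not be told apart from these neighbours if strand was ignored.

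RefSeq promoter windows were found for 6 of the 9 members, and not for Cxcl5, Cxcl11 and Cxcl16. The 250 bases before the RefSeq start of 5 of them are shown because they belong to both classes and can be compared by the motif letters they hold. Each was placed on GRCm39 by a single exact match, and capitals mark GGGNNNNNCC, a loose NF-kB motif read on both strands, and GAAANNGAAA, the interferon-stimulated response element (ISRE).
Cxcl1, chr5:91038854-91039103, plus strand: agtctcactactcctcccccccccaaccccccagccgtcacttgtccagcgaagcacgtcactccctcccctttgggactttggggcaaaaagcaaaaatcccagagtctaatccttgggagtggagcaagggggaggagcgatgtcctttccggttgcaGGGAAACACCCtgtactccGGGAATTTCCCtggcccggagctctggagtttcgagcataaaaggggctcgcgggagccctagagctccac
Cxcl2, chr5:91051508-91051757, plus strand: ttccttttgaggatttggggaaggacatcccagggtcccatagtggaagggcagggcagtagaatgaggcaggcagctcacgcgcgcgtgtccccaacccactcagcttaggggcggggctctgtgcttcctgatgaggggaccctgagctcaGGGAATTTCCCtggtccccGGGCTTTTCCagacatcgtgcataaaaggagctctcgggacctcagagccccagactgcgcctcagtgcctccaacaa
Cxcl3, chr5:90933710-90933959, plus strand: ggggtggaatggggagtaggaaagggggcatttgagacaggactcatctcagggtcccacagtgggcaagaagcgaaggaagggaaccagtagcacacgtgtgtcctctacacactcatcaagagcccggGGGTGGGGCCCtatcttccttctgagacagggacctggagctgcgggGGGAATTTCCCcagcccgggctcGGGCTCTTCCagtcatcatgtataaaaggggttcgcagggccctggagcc
Cxcl10, chr5:92496749-92496998, minus strand: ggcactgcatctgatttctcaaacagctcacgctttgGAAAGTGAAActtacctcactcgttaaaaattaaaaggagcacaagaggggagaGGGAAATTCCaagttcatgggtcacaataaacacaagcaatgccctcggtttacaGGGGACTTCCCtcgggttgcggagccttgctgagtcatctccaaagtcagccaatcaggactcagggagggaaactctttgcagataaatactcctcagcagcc
Cxcl9, chr5:92475939-92476188, minus strand: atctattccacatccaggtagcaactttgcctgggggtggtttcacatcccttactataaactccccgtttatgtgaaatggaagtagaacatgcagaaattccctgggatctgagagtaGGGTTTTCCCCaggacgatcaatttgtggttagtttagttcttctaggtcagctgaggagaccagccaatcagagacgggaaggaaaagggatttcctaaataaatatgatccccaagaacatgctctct

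The 3 neutrophil-attracting windows each held GGGAATTTCC, a match to the stricter NF-kB motif GGGANTTTCC that also matches the loose one. The match began 71 bases before the start of Cxcl1, 97 before Cxcl2 and 73 before Cxcl3. Only 0.411% of 32851 RefSeq windows of 300 bases held the stricter motif on either strand, while 50.8% held the loose one. Cxcl10 held the ISRE match GAAAGTGAAA, beginning 213 bases before its start, and Cxcl14 held an ISRE match 172 bases before its start. That motif was in 3.44% of all windows. Cxcl9 held the loose NF-kB motif and neither the stricter one nor the ISRE. These are matches of letters, and no binding was measured.

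**Figure D1:**
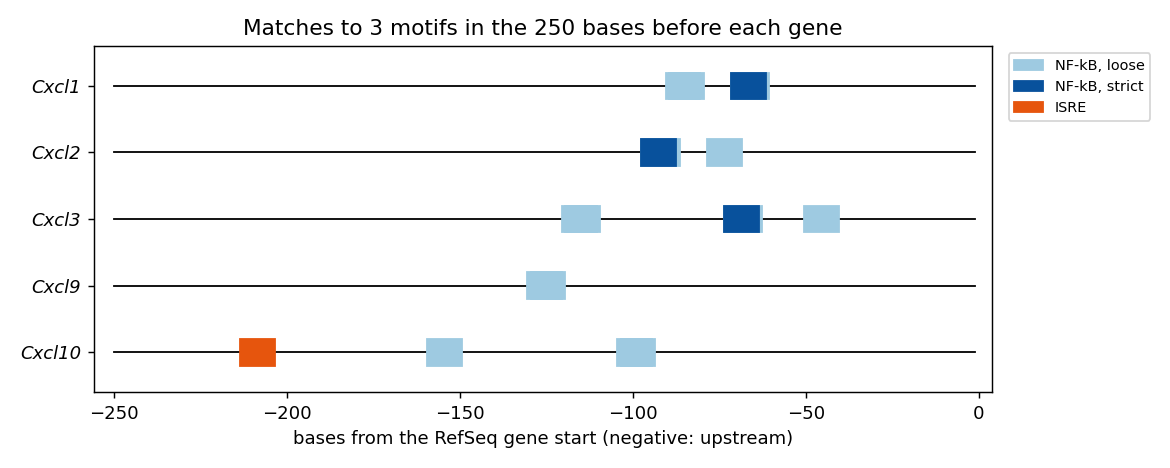
Matches to a loose NF-kB motif, a stricter NF-kB motif and the ISRE in the 250 bases before 5 members, with distance from the RefSeq start in bases on the x axis and 1 line per gene. The stricter NF-kB match lies 71, 97 and 73 bases before Cxcl1, Cxcl2 and Cxcl3, and the ISRE match 213 bases before Cxcl10.

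In M1 the classes moved apart in Prep-/- BMDMs. All 4 neutrophil-attracting members were lower than in Prep+/- M1 and both measured interferon-induced members were higher, with no overlap between the libraries of the genotypes. The share of all genes without such overlap was not counted, so nothing is read from this separation. In bulk RNA, fewer cells expressing a gene and less RNA per cell cannot be told apart.

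Cxcl3, a ligand of Cxcr2, had 3275, 6204 and 5116 normalized counts in replicates 1 to 3 of Prep+/- M1 and 143, 138 and 211 in Prep-/- M1. Every Prep-/- library was far below the lowest Prep+/- library, and the means were 4865 ± 1480 and 164 ± 40.9 (SD, n = 3 each). This is a 29.7-fold lower level, or a log2 fold change of -4.89 with a standard error (SE) of 0.27.

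Cxcl1, the mouse counterpart of the growth-regulated chemokines of humans, had 415, 640 and 541 normalized counts in Prep+/- M1 and 35.2, 71.5 and 60.3 in Prep-/- M1. These groups were likewise separate, with a log2 fold change of -3.25 (SE 0.43). Cxcl2, also called macrophage inflammatory protein 2, had 4066, 5440 and 5327 normalized counts in Prep+/- M1 and 711, 1341 and 1533 in Prep-/- M1. Its difference was the smallest of the class on the log2 scale, at -2.05 (SE 0.38), and the Prep-/- libraries still held more Cxcl2 than any M0 library.

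Cxcl5 was near the limit of detection. It had 15, 30 and 24 reads in the 3 Prep+/- M1 libraries, 0, 0 and 1 in Prep-/- M1, and 0 in each of the other 12 libraries, where a count of 0 allows up to 3 reads per library. The ratio of Prep+/- M1 to Prep-/- M1, with 69 reads against 1, was 76.6, with an exact 95% interval of 13.3 to 3071 that covers counting error only. The gene passed the filter on low counts through the Prep+/- M1 libraries alone.

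Of the interferon-induced members, Cxcl10 had 3457, 4299 and 4613 normalized counts in Prep+/- M1 and 38305, 9435 and 22174 in Prep-/- M1. The lowest Prep-/- library was above the highest Prep+/- library, but the Prep-/- libraries spread over a wide range (mean 23305 ± 14468, SD, n = 3), and the log2 fold change was 2.50 (SE 0.54). It was 1.93 without replicate 1 of Prep-/- M1. Cxcl9 had 298, 275 and 181 normalized counts in Prep+/- M1 and 734, 388 and 356 in Prep-/- M1. Its log2 fold change of 0.97 (SE 0.34) was 0.56 without replicate 1 of Prep-/- M1, which held the highest level of both Cxcl9 and Cxcl10.

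Cxcl14 was also lower in Prep-/- M1, with 66.0, 96.0 and 135 normalized counts against 311, 414 and 324 in Prep+/- M1, a log2 fold change of -1.82 (SE 0.41). Cxcl16 overlapped between the genotypes, with 10699, 8070 and 8269 normalized counts in Prep-/- M1 and 8027, 9941 and 9480 in Prep+/- M1 (log2 fold change -0.02, SE 0.23). By a fold over 1.5 alone, 5 of 8 members were lower and 2 higher, where 14.2% and 16.6% of the 12021 genes tested were. The median log2 fold change of the members was -1.93 and that of all genes 0.04. Since this contrast chose the members, nothing is read from these shares.

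**Figure D2:**
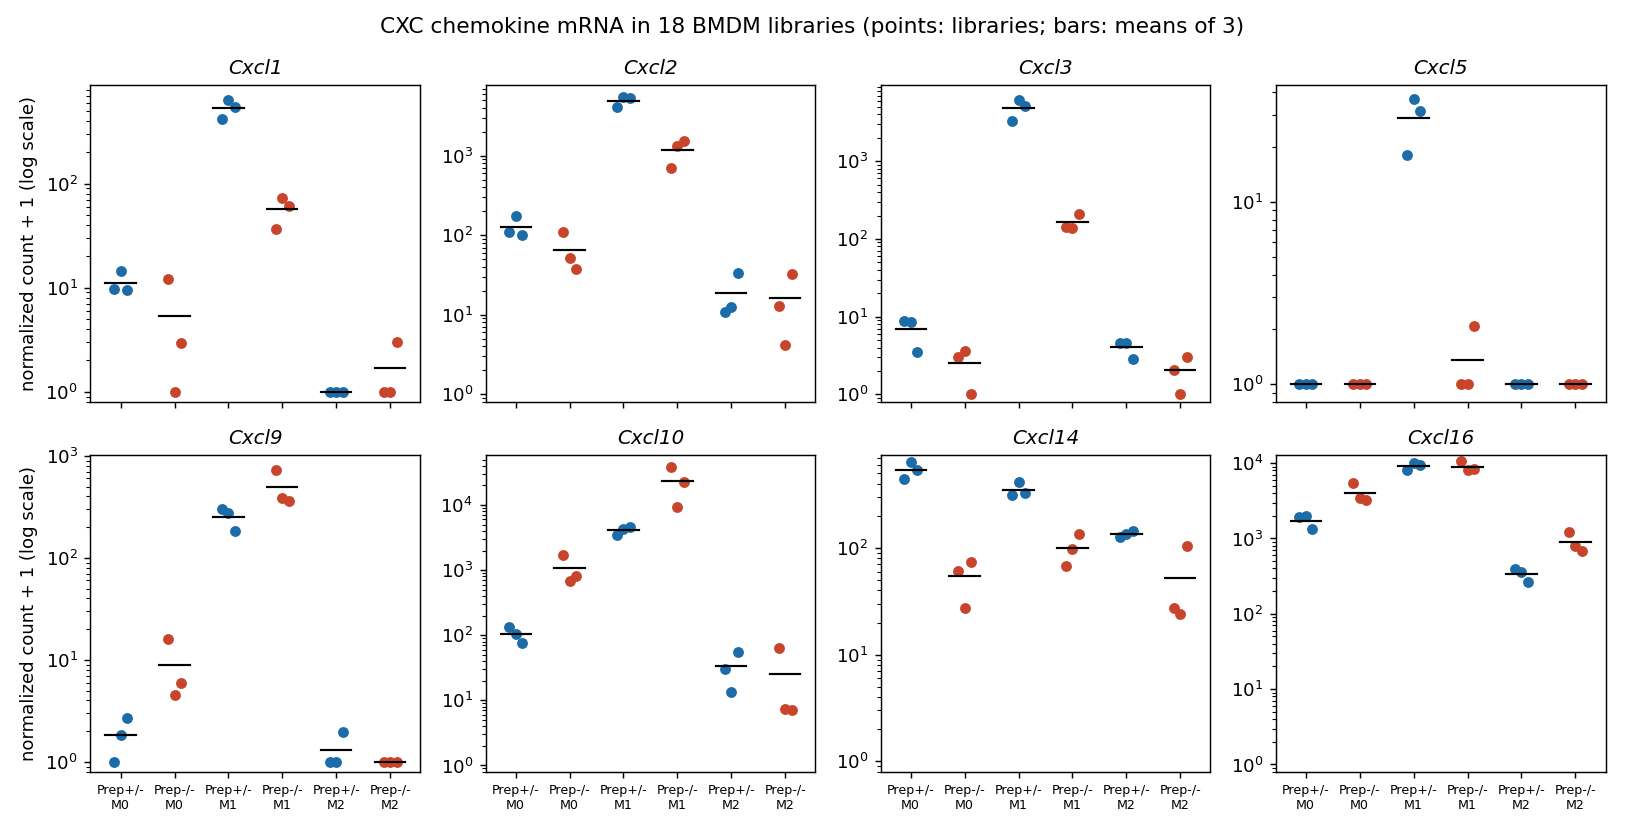
Normalized counts plus 1 of the 8 measured members on a logarithmic y axis, by genotype and state on the x axis, with 1 point per library and a bar at the mean of 3. In M1 the Prep-/- points of Cxcl1, Cxcl2, Cxcl3 and Cxcl5 lie below all Prep+/- points, and those of Cxcl9 and Cxcl10 above them.

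The balance of the classes can be read within each library, where depth cancels out. The sum of Cxcl1, Cxcl2, Cxcl3 and Cxcl5 divided by the sum of Cxcl9 and Cxcl10 was 2.07, 2.69 and 2.30 in replicates 1 to 3 of Prep+/- M1 and 0.0228, 0.158 and 0.0802 in Prep-/- M1. The M0 ratios were 0.942, 1.87 and 1.43 for Prep+/- cells against 0.0710, 0.0774 and 0.0476 for Prep-/- cells. The ratio was thus lower in Prep-/- in both states without overlap. For M2 the Prep+/- ratios of 0.455, 1.21 and 0.610 overlapped with the Prep-/- ratios of 0.207, 0.50 and 5.83, and the sums there rested on few reads.

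**Figure D3:**
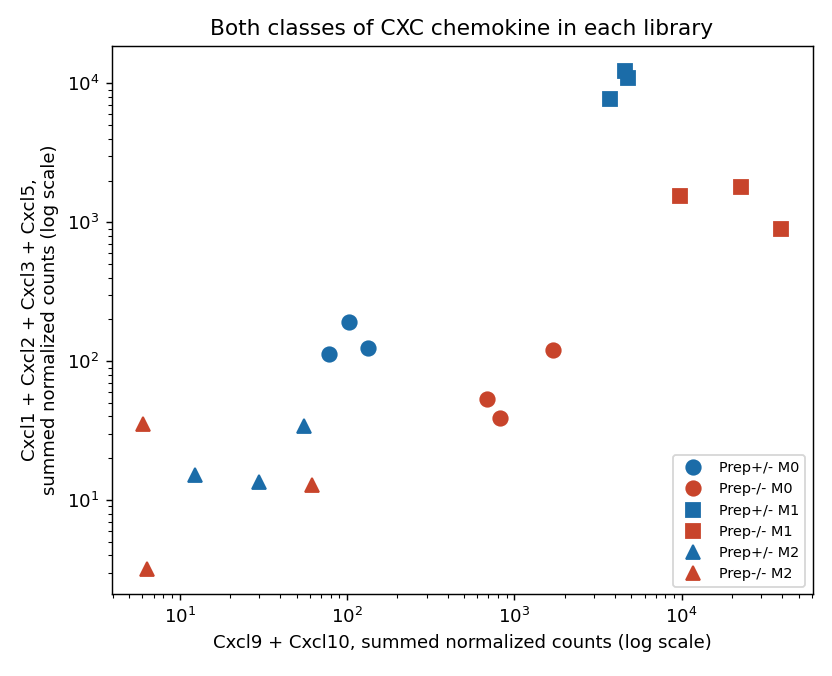
Summed normalized counts of the 4 neutrophil-attracting members (y axis) against those of Cxcl9 and Cxcl10 (x axis) in each of 18 libraries, both axes logarithmic, with color for genotype and shape for state. The Prep-/- M0 and M1 libraries lie to the right of the Prep+/- libraries of the same state, at ratios (y over x) of 0.0228 to 0.158 against 0.942 to 2.69.

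Before any stimulus, Cxcl9, Cxcl10 and Cxcl16 were already higher in Prep-/- BMDMs and Cxcl14 was lower, while no neutrophil-attracting member passed the test. The M0 libraries do not enter the M1 comparison by which the members were chosen. Of 8 members, 3 were called higher in Prep-/- M0 and 1 lower by edgeR's quasi-likelihood test at an adjusted p under 0.05 and a fold over 1.5. Of all genes tested, 15.4% were called higher and 17.2% lower. The median log2 fold change was -0.98 over the 7 members with a fold and 0.02 over all genes.

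Cxcl10 had 133, 102 and 76.3 normalized counts in the Prep+/- M0 libraries against 1682, 683 and 816 in Prep-/- M0. All Prep-/- libraries were above all Prep+/- libraries, and the level rose by 3.36 on the log2 scale (SE 0.59, edgeR adjusted p = 2.48e-04). Without replicate 3 of Prep-/- M0 the log2 fold change was 3.50 (edgeR adjusted p = 2.79e-04).

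Cxcl9 had 0, 1 and 2 reads in the Prep+/- M0 libraries against 15, 4 and 5 in Prep-/- M0. The libraries did not overlap, and the ratio of 24 reads to 3 was 8.67 in normalized counts (exact 95% counting interval 2.63 to 45.0), with an edgeR adjusted p of 0.0164. That call rested on single libraries, since the edgeR adjusted p was 0.111 without replicate 1 of Prep-/- M0 and 0.0510 without replicate 2 of Prep+/- M0. Without replicate 3 of Prep-/- M0 it was 0.0173. Cxcl9 passed the filter through M1 libraries and was not tested in a fit of the M0 libraries alone.

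Cxcl16 had 1901, 1961 and 1318 normalized counts in the Prep+/- M0 libraries against 5382, 3472 and 3225 in Prep-/- M0. It rose by 1.22 on the log2 scale without overlap (SE 0.24, edgeR adjusted p = 5.06e-04), and by 1.34 without replicate 3 of Prep-/- M0. Cxcl14 had 446, 631 and 539 normalized counts in the Prep+/- M0 libraries against 60.2, 26.6 and 72.3 in Prep-/- M0. It fell by 3.35 on the log2 scale (SE 0.43, edgeR adjusted p = 1.65e-05), and fell by 3.66 without replicate 3 of Prep-/- M0.

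Of the 4 neutrophil-attracting members, 0 passed the edgeR test in M0, against 2 lower at an unadjusted p under 0.05 and 1 lower by DESeq2. Cxcl2 had 109, 171 and 101 normalized counts in the Prep+/- M0 libraries against 107, 50.5 and 37.1 in Prep-/- M0, which overlapped (log2 fold change -0.98, SE 0.45, edgeR adjusted p = 0.0822). Cxcl1 had 8.68, 13.4 and 8.48 against 11, 0 and 1.95 (log2 fold change -1.27, SE 0.73, edgeR adjusted p = 0.163). Replicate 1 of Prep-/- M0 was the highest of its group for both, and without it Cxcl2 was called lower at -1.53 (edgeR adjusted p = 0.0207) and Cxcl1 at -3.29 (edgeR adjusted p = 0.00852). Without replicate 3 of Prep-/- M0 neither was called, with Cxcl2 at -0.72 (edgeR adjusted p = 0.218) and Cxcl1 at -0.96 (edgeR adjusted p = 0.329).

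Cxcl3 had 8, 9 and 3 reads in the Prep+/- M0 libraries against 2, 3 and 0 in Prep-/- M0. The groups met at 3 reads, and the log2 fold change of -1.81 (SE 0.82) had an edgeR adjusted p of 0.0790, against 0.0304 by DESeq2. Leaving out replicate 3 of Prep+/- M0 gave -2.19 and an edgeR adjusted p of 0.0427, while leaving out replicate 3 of Prep-/- M0 gave -1.28 and 0.235. Cxcl5 had 0 reads in all 6 M0 libraries, so no fold is given.

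In M2, where these chemokines were mostly low, 1 of 8 members was higher and 1 lower in Prep-/- BMDMs, against 6.37% and 9.82% of all genes. The median log2 fold change was -0.39 over the 5 members with a fold and 0.03 over all genes. Cxcl16 had 389, 359 and 264 normalized counts in Prep+/- M2 and 1225, 803 and 677 in Prep-/- M2. It rose by 1.42 on the log2 scale without overlap (SE 0.24, edgeR adjusted p = 5.09e-04), and by 1.60 without replicate 3 of Prep-/- M2.

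Cxcl14 had 126, 133 and 142 normalized counts in Prep+/- M2 and 26.6, 23.3 and 102 in Prep-/- M2. Replicate 3 of Prep-/- M2 was nearer to the Prep+/- libraries than to its own replicates, and the fall of 1.39 on the log2 scale (SE 0.43, edgeR adjusted p = 0.0276) became 2.40 without it (edgeR adjusted p = 1.83e-04). The call was lost on leaving out any 1 of the other 5 libraries, at an edgeR adjusted p of 0.0544 to 0.121, and in a fit of these 6 libraries alone (edgeR adjusted p = 0.106).

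Cxcl10 was low and uneven in M2, with 29.8, 12.4 and 54.7 normalized counts for Prep+/- and 61.8, 6.35 and 6.09 for Prep-/- libraries. The groups overlapped, at a log2 fold change of -0.39 (SE 0.82, edgeR adjusted p = 0.771). Cxcl2 overlapped as well, with 9.92, 11.5 and 32.1 against 11.7, 3.17 and 31.4 (log2 fold change -0.18, SE 0.71, edgeR adjusted p = 0.889). Cxcl3 had 4, 4 and 2 reads in Prep+/- M2 and 1, 0 and 2 in Prep-/- M2, a ratio of 2.90 whose exact 95% counting interval of 0.748 to 16.4 includes no difference. Cxcl1, Cxcl5 and Cxcl9 had at most 2 reads in any M2 library.

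**Figure D4:**
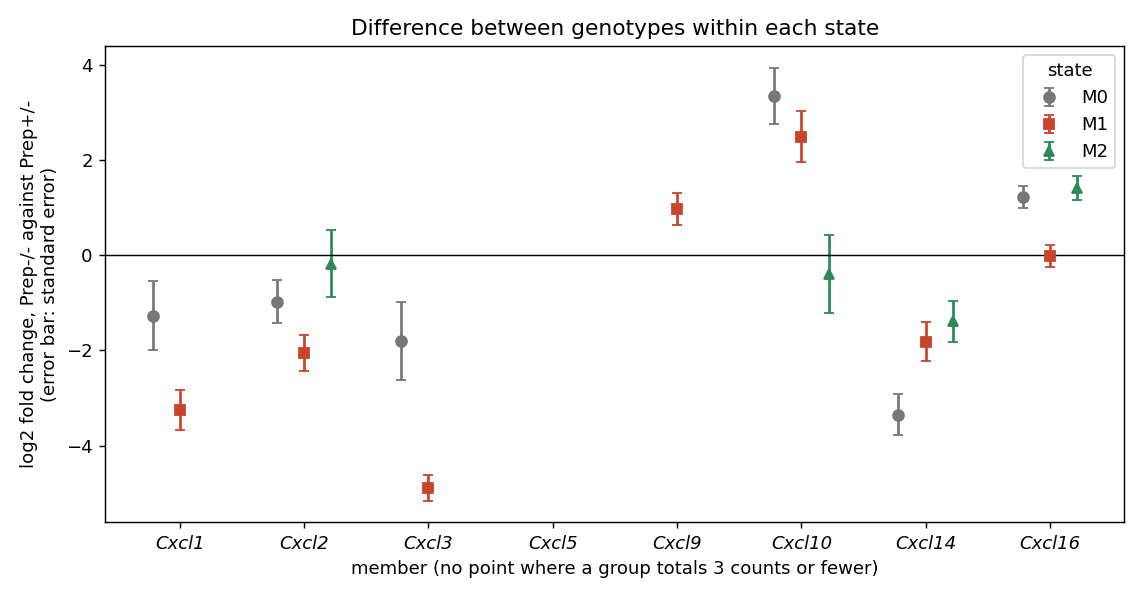
Log2 fold change of Prep-/- against Prep+/- (y axis, error bars are standard errors) for each member on the x axis, in M0, M1 and M2, with no point where a group totals 3 counts or fewer. Cxcl3 is lowest in M1 at -4.89, Cxcl10 is at 3.36 in M0 and 2.50 in M1 and near 0 in M2, and Cxcl16 is above 0 in M0 and M2 and at -0.02 in M1.

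LPS raised most members in both genotypes. The response was tested within a genotype, except for Cxcl3, whose M1 values were used in the choice, and Cxcl5, which passed the filter only through Prep+/- M1. Both are given without a test. Cxcl9, with 15 reads or fewer in any library outside M1, also passed the filter through M1 libraries, though of both genotypes. Its rise is given without a p-value, and its place in the counts below is a description. In Prep+/- BMDMs, 5 of 6 members rose (Cxcl1, Cxcl2, Cxcl9, Cxcl10 and Cxcl16) and none fell, against 16.7% of all genes higher and 20.9% lower. In Prep-/- BMDMs, the same 5 of 6 rose and none fell, against 20.9% higher and 21.0% lower. At an unadjusted p under 0.05 or by DESeq2, the count of members that fell was 0 in both genotypes as well. The median log2 fold change over these 6 members was 5.30 in Prep+/- and 3.95 in Prep-/- BMDMs, while those of all genes were -0.03 and 0.00044.

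Among the neutrophil-attracting members, Cxcl1 rose by 5.68 on the log2 scale in Prep+/- (SE 0.51, edgeR adjusted p = 3.10e-07) and by 3.70 in Prep-/- BMDMs (SE 0.61, edgeR adjusted p = 1.11e-04). For Cxcl2 the rises were 5.28 (SE 0.45, edgeR adjusted p = 6.67e-08) and 4.21 (SE 0.45, edgeR adjusted p = 8.46e-07). Every M1 library of either genotype was above every M0 library of that genotype for both genes. Cxcl3 was 9.66 higher in Prep+/- (SE 0.37) and 6.58 higher in Prep-/- BMDMs (SE 0.48) on the log2 scale, the largest values among the members, although Prep-/- M0 totalled only 5 reads. In Prep+/- BMDMs Cxcl5 was at least 10.5-fold higher after LPS, taking 3 reads per library as the level of M0, and it stayed at 1 read in all in Prep-/- M1.

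Of the interferon-induced members, Cxcl10 rose by 5.32 on the log2 scale in Prep+/- (SE 0.64, edgeR adjusted p = 2.76e-06) and by 4.46 in Prep-/- BMDMs (SE 0.59, edgeR adjusted p = 8.46e-06). Cxcl9 went from 3 to 634 reads in Prep+/- BMDMs, a ratio of 289 (exact 95% counting interval 98.3 to 1404). In Prep-/- BMDMs Cxcl9 was 5.98 higher on the log2 scale (SE 0.47). Prep-/- BMDMs thus started from a higher level of both genes and reached a higher level.

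Cxcl16 rose by 2.41 on the log2 scale in Prep+/- (SE 0.24, edgeR adjusted p = 4.38e-07) and by 1.16 in Prep-/- BMDMs (SE 0.23, edgeR adjusted p = 4.81e-04), from unequal M0 levels to overlapping M1 levels. Cxcl14 was not called in either genotype. Its log2 fold change was -0.62 in Prep+/- (SE 0.38, edgeR adjusted p = 0.183) and 0.91 in Prep-/- BMDMs (SE 0.44, edgeR adjusted p = 0.0869). With the replicate number as a block among the Prep-/- M0 and M1 libraries, where same-numbered libraries deviated together, Cxcl14 was called higher at 0.90 (edgeR adjusted p = 0.0495). In a fit of the Prep+/- M0 and M1 libraries alone it was called lower at -0.61 (edgeR adjusted p = 0.00698). The difference between the genotypes' responses to LPS was not tested for any member, since the M1 difference chose them.

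**Figure D5:**
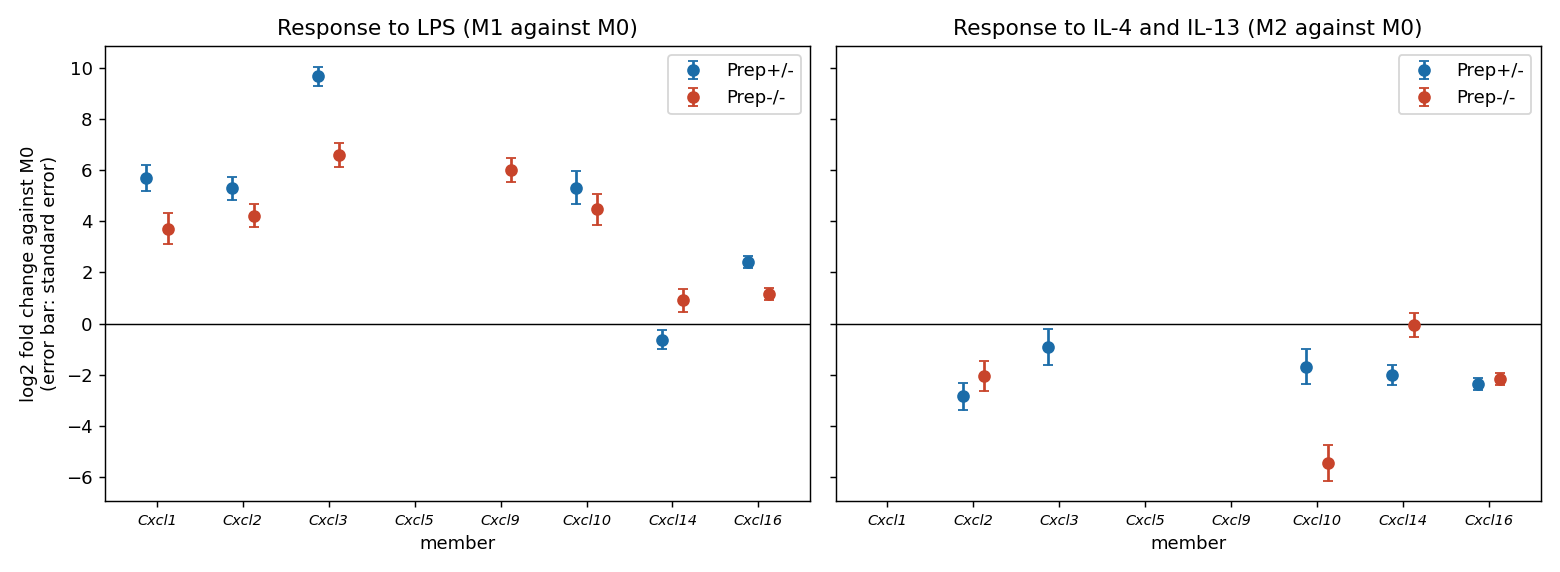
Log2 fold change against M0 (y axis, error bars are standard errors) after LPS (left) and after IL-4 with IL-13 (right) for each member on the x axis, in Prep+/- and Prep-/- BMDMs, with no point where a group totals 3 counts or fewer. Cxcl3 after LPS is at 9.66 in Prep+/- and 6.58 in Prep-/- BMDMs, and Cxcl10 after IL-4 with IL-13 is at -1.69 and -5.43.

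IL-4 with IL-13 lowered several members. In Prep+/- BMDMs 4 of 8 fell (Cxcl1, Cxcl2, Cxcl14 and Cxcl16) and in Prep-/- BMDMs 4 of 8 fell (Cxcl2, Cxcl9, Cxcl10 and Cxcl16). The count of members that rose was 0 in both genotypes by edgeR, at an unadjusted p under 0.05 and by DESeq2. Of all genes, 6.77% were called lower and 6.09% higher in Prep+/- and 15.5% lower and 14.7% higher in Prep-/- BMDMs. The median log2 fold change was -1.95 in Prep+/- and -2.10 in Prep-/- over the 6 members with a fold in each, with members at 0 reads set to their bound, and -0.01 and -0.02 over all genes.

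Cxcl16 fell in both genotypes, by 2.36 on the log2 scale in Prep+/- (SE 0.25, edgeR adjusted p = 3.69e-06) and fell by 2.16 in Prep-/- BMDMs (SE 0.24, edgeR adjusted p = 2.86e-06). Cxcl2 fell by 2.84 in Prep+/- (SE 0.53, edgeR adjusted p = 0.00109) and fell by 2.04 in Prep-/- BMDMs (SE 0.59, edgeR adjusted p = 0.0103). The Prep-/- call of Cxcl2 was lost without replicate 1 of Prep-/- M0 (edgeR adjusted p = 0.0661) and in a fit of the compared libraries alone (edgeR adjusted p = 0.0713). Cxcl1 had no read in Prep+/- M2 and was at least 3.72-fold lower than in M0 (edgeR adjusted p = 0.00603), taking 3 reads per library as the floor. By the same floor, Cxcl9 had no read in Prep-/- M2 and was at least 2.50-fold lower than in M0 (edgeR adjusted p = 0.00447).

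Cxcl10 fell by 5.43 on the log2 scale in Prep-/- BMDMs (SE 0.70, edgeR adjusted p = 1.24e-05), from 683 to 1682 normalized counts in M0 to 6.09 to 61.8 in M2. In Prep+/- BMDMs its log2 fold change was -1.69 (SE 0.68, edgeR adjusted p = 0.10), with no overlap between states, and it was called in a fit of those libraries alone (edgeR adjusted p = 0.0106). The difference between the genotypes was itself tested, at -3.74 on the log2 scale (SE 1.0, edgeR adjusted p = 0.0268). It was no longer called without replicate 1 of Prep-/- M0 (edgeR adjusted p = 0.0549) or without replicate 3 of Prep-/- M2 (edgeR adjusted p = 0.0610). The call was also lost without replicate 2 or 3 of Prep+/- M0 (edgeR adjusted p = 0.0623 and 0.0665) or replicate 1 or 3 of Prep+/- M2 (edgeR adjusted p = 0.0615 and 0.102).

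Cxcl14 fell by 2.01 on the log2 scale in Prep+/- BMDMs (SE 0.40, edgeR adjusted p = 0.00175) and had a log2 fold change of -0.05 in Prep-/- BMDMs (SE 0.46, edgeR adjusted p = 0.945), where it was already low in M0. The difference of the responses was 1.96 (SE 0.60, edgeR adjusted p = 0.0499). It was 0.95 without replicate 3 of Prep-/- M2 (edgeR adjusted p = 0.278), and the Prep-/- response was then -1.09 (edgeR adjusted p = 0.0415). Of all genes, 4.53% were called higher and 4.13% lower in this difference. The values for Cxcl2 (0.80, SE 0.85) and Cxcl16 (0.20, SE 0.33) did not pass the test, and the remaining members were too low for a value. All comparisons within a genotype share their M0 libraries.

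The order of the groups differed by class. Mean normalized counts of Cxcl1, Cxcl2, Cxcl3 and Cxcl5 were highest in Prep+/- M1 and next in Prep-/- M1, and for Cxcl1, Cxcl2 and Cxcl3 neither of these groups overlapped with the next. Below them, Prep+/- M0 and Prep-/- M0 overlapped for Cxcl1 and Cxcl2. Cxcl9 and Cxcl10 were highest in Prep-/- M1, followed by Prep+/- M1, Prep-/- M0 and Prep+/- M0, with no overlap among these 4 groups, and their M2 groups overlapped. Cxcl14 was highest in Prep+/- M0, then Prep+/- M1 and Prep+/- M2, and the last overlapped with Prep-/- M1. For Cxcl16 the only neighbours that overlapped were Prep+/- M1 and Prep-/- M1.

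Levels of different members were compared per kilobase of exon union. In Prep+/- M1 Cxcl2 stood highest, at 2391 ± 369 normalized counts per kilobase, followed by Cxcl10 at 1831 ± 265, Cxcl16 at 1786 ± 195 and Cxcl3 at 1391 ± 423 (SD, n = 3 each). The last 3 lay within their spread of each other, and with canonical transcript lengths Cxcl3 stood first at 4788. In Prep-/- M1 Cxcl10 was first at 10348 ± 6425 normalized counts per kilobase and Cxcl16 next at 1759 ± 286, under every length used, while Cxcl3 was at 46.9 ± 11.7. Cxcl16 was first in M0 and M2 of both genotypes, under every length used.

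Of 6 other CXC ligands listed, Pf4 and Ppbp were tested, and both lie between Cxcl5 and Cxcl3 on chromosome 5. Ppbp, which gives rise to a further Cxcr2 ligand, had 136, 233 and 206 normalized counts in Prep+/- M1 and 30.8, 13.9 and 48.5 in Prep-/- M1, without overlap (log2 fold change -2.62, SE 0.43, edgeR adjusted p = 4.18e-04). Pf4, platelet factor 4, had 17972, 30903 and 27787 against 6382, 5553 and 8047, also without overlap (log2 fold change -1.94, SE 0.31, edgeR adjusted p = 3.09e-04). Neither gene was called in M0 or M2 with all libraries, but without replicate 3 of Prep-/- M0 the log2 fold change of Pf4 in M0 went from -0.48 (edgeR adjusted p = 0.198) to -1.13 (edgeR adjusted p = 3.94e-04). After LPS, Pf4 rose by 2.07 on the log2 scale in Prep+/- BMDMs (SE 0.31, edgeR adjusted p = 2.97e-05), and its 0.60 in Prep-/- BMDMs (SE 0.30) did not pass the test (edgeR adjusted p = 0.0946) unless that library was left out (1.21, edgeR adjusted p = 1.51e-04). The response to LPS was smaller in Prep-/- than in Prep+/- BMDMs by the test of the difference, at -2.56 for Ppbp (SE 0.70, edgeR adjusted p = 0.0144) and -1.46 for Pf4 (SE 0.42, edgeR adjusted p = 0.0193). For Pf4 the difference was -0.83 without replicate 3 of Prep-/- M0 (edgeR adjusted p = 0.0340). Its call was lost without replicate 3 of Prep+/- M0, replicate 2 of Prep+/- M1 or replicate 2 of Prep-/- M1 (edgeR adjusted p = 0.0528, 0.0582 and 0.0521), and that of Ppbp without replicate 1 of Prep-/- M0 (edgeR adjusted p = 0.0559). These values without a library were chosen after seeing the data. Among 8 CXC receptors, Cxcr3 and Cxcr4 were tested. Cxcr3 was called neither higher nor lower in Prep-/- BMDMs in M0, M1 or M2. Cxcr4, the receptor of Cxcl12, was higher in Prep-/- BMDMs by 1.74 in M0, 2.56 in M1 and 1.33 in M2 on the log2 scale (edgeR adjusted p = 2.49e-04, 4.75e-04 and 0.00444).

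The pathways that feed these chemokines were read from gene lists. These lists were chosen with earlier results of these data known, so the counts describe them and are no independent support. Beside them, 15.4%, 12.3% and 6.37% of all genes were called higher and 17.2%, 10.2% and 9.82% lower in Prep-/- M0, M1 and M2. Of 24 tested genes of the interferon pathway, 20 rose and 0 fell in M0, 14 rose and 0 fell in M1, and 3 rose and 1 fell in M2. At an unadjusted p under 0.05 or by DESeq2, 0 of them fell in M0 and in M1. The median log2 fold change of the list was 1.37, 0.78 and 0.25 in M0, M1 and M2. The interferon-induced antiviral genes Ifit3 and Ifit1 rose by 3.75 (SE 0.46, edgeR adjusted p = 1.07e-05) and 3.66 (SE 0.50, edgeR adjusted p = 2.73e-05) in M0. Rsad2, which encodes the antiviral protein viperin, rose by 3.49 in M1 (SE 0.48, edgeR adjusted p = 1.16e-04). Ifnb1, interferon beta, was 2.40 higher in M1 (SE 0.75) and is counted among the 14 above. No p-value is given for Ifnb1, which was near the floor outside M1 (SE 2.58 for IL-4 with IL-13 in Prep-/- BMDMs) and passed the filter through M1 libraries. In M2 Gbp2, a GTPase of antimicrobial defence, rose by 3.21 (SE 0.36, edgeR adjusted p = 1.94e-05) while Oasl1 fell by 1.44 (SE 0.49, edgeR adjusted p = 0.0424).

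Of 23 tested genes that depend on NF-kB, 6 rose and 3 fell in Prep-/- M0, 1 rose and 6 fell in M1, and 3 rose and 1 fell in M2, with list medians of 0.52, -0.31 and 0.15. In M1 Csf3, the growth factor of granulocytes, had a log2 fold change of -6.56 (SE 0.47) and is counted among the 6 that fell. Its p-value is left out, since Csf3 was near the floor in M0 and M2 (SE 2.05 and 2.99 for IL-4 with IL-13 in Prep+/- and Prep-/- BMDMs). Csf3 may have passed the filter through Prep+/- M1 libraries alone. Il1a, interleukin-1 alpha, fell by 2.36 on the log2 scale in M1 (SE 0.24, edgeR adjusted p = 1.25e-05). Il1b, interleukin-1 beta, fell by 2.26 in M1 (SE 0.37, edgeR adjusted p = 3.85e-04), whereas it rose by 2.01 in M0 (SE 0.49, edgeR adjusted p = 0.00309). The one gene of the list that rose in M1 was Rel, an NF-kB subunit, at 0.64 (SE 0.23, edgeR adjusted p = 0.0399). Ccl2 and Ccl7, which attract monocytes, fell by 4.02 (SE 0.82, edgeR adjusted p = 7.86e-04) and fell by 3.81 (SE 0.60, edgeR adjusted p = 9.20e-05) in M0.

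Of 23 genes of LPS signalling, 7 rose and 0 fell in Prep-/- M0, 3 rose and 1 fell in M1, and 3 rose and 0 fell in M2. The counts of 0 were 0 at an unadjusted p under 0.05 and by DESeq2 as well. Ly96, which holds LPS on its receptor, rose by 1.22 in M0 (SE 0.16, edgeR adjusted p = 1.52e-05). Tlr4, the LPS receptor, rose by 0.78 in M1 (SE 0.12, edgeR adjusted p = 2.37e-04) and its co-receptor Cd14 fell by 0.93 (SE 0.19, edgeR adjusted p = 0.00176).

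Among 12 genes that control the decay of chemokine mRNA, 4 rose and 1 fell in M0, 4 rose and 2 fell in M1, and 3 rose and 0 fell in M2, where 0 also fell at an unadjusted p under 0.05 and by DESeq2. Zfp36, whose protein tristetraprolin speeds the decay of such mRNA, rose by 0.90 in M1 (SE 0.22, edgeR adjusted p = 0.00517). Elavl1, whose protein HuR slows it, fell by 0.86 (SE 0.14, edgeR adjusted p = 4.24e-04) and Zc3h12a, a ribonuclease that cuts it, fell by 0.67 (SE 0.21, edgeR adjusted p = 0.0220). Arid5a, which also stabilizes inflammatory mRNA, rose by 1.60, 1.81 and 0.98 in M0, M1 and M2 (edgeR adjusted p = 2.65e-04, 2.72e-04 and 0.0175). Of 11 proteases that process chemokines, 1 rose and 1 fell in M0, 0 rose and 3 fell in M1 (Mmp9, Mmp8 and Mmp12), and 4 rose and 0 fell in M2. At an unadjusted p under 0.05, 3 of them rose in M1 and 1 fell in M2, and DESeq2 gave 0 for both.

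Genes whose log2 CPM across the 18 libraries were most like each pattern were ranked among 9595 genes by Pearson's r, as a description of libraries that share group and scaling. Closest to Cxcl3 were Serpinb2 (r = 0.983), Nucb2 (0.978), Upp1 (0.975), Ap5b1 (0.974) and Slpi (0.968), and for other members r with Cxcl3 was 0.954 for Cxcl1, 0.930 for Cxcl2 and 0.708 for Cxcl10. Closest to Cxcl5 were Csf3 (0.954), Rrp7a (0.942), Slc27a4 (0.931), Pitpna (0.922) and Pf4 (0.921). As Cxcl5 had almost no reads outside Prep+/- M1, its r mainly follows how far those libraries stood from the others. The M1 difference also chose the members. Cxcl10 was closest to Ifit3b (0.979), Gngt2 (0.977), Iigp1 (0.975), Ifit3 (0.975) and Ifit1 (0.974), and with Cxcl9 and Cxcl16 its r was 0.926 and 0.919.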

How the data were processed

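Bulk RNA-seq was carried out on 18 BMDM libraries in 6 groups, taken from the genotype and treatment in the sample labels. Reads were trimmed with Trimmomatic 0.36 and aligned to GRCm39 with HISAT2 2.2.1.0, as the submitters' processing notes list, and assembled with stringtie2. The authors deposited whole-number read counts per gene symbol without normalization, and 0 columns were left without a sample. The strandedness of counting and the handling of reads with several matches are not given in the sources used here.

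Genes were kept with filterByExpr, which left 12021 of 16314 genes, and libraries were scaled by TMM. The quasi-likelihood test of edgeR 4.0.16 (limma 3.58.1, R 4.3.3) used a model of all 18 libraries in which each group had its own mean, with Benjamini-Hochberg adjustment over all 12021 genes. A gene was called at an adjusted p below 0.05 together with a fold over 1.5. The authors' own tool, DESeq2 (1.42.0 here), was an alternative, and so were other scalings, filters, fits of the compared libraries alone, a fold-aware test (glmTreat), a replicate block and leaving out each library. The members and gene lists were chosen with earlier results of these data known. The genes named are the members, other CXC ligands and receptors, the 5 genes most like Cxcl3, Cxcl5 and Cxcl10, and from each list and state some of the called genes that rose or fell most, up to 2 in each direction. Ifnb1, Mmp12, Cxcl15 and Il1b in M1 were chosen after their values were seen.

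Same-numbered libraries deviated together from their group means when the genotypes were compared in M2 (r = 0.249, 0.255 and 0.462). They also did so for LPS in Prep-/- cells (r = 0.201, 0.169 and 0.259). The p-values given do not account for this possible pairing unless a replicate block is named. With a block among the libraries compared, the edgeR adjusted p of Cxcl16 in M2 was 0.00237, and that of Cxcl1 after LPS in Prep-/- cells was 0.00284. The pairing comes from these correlations alone. A floor of 3 counts per library was used, and intervals and floors cover counting error only. On simulated counts for 11889 genes in the M0 knockout comparison, with 200 of them changed, edgeR recovered 80% of genes changed 2-fold and 96% of those changed 4-fold. The changed genes were drawn from those with at least 1 CPM in Prep+/- M0. Cxcl1, Cxcl3, Cxcl5 and Cxcl9 were below that, at means of 0.481, 0.280, 0 and 0.0399 CPM, so these rates do not cover them. Positions are from GENCODE on GRCm39, and that release may not be the one the authors used. Promoter windows of RefSeq were read from a GRCm38.p6 table and placed on GRCm39 by exact match. Transcripts were compared with blastn 2.17.0, and plots were made in Python 3.11.15 with matplotlib 3.10.9.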

Additional observations from a re-analysis of the deposited data

Results flagged for a closer look

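The response of Cxcl10 to IL-4 with IL-13 differed between the genotypes by a test of the difference itself, at -3.74 on the log2 scale (SE 1.0, edgeR adjusted p = 0.0268), with a fall in all Prep-/- libraries from 683 or more to 61.8 or fewer normalized counts. Over 21 alternatives it was called in 13, with an edgeR or DESeq2 adjusted p between 0.00564 and 0.110.

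The response of Cxcl14 differed in the opposite direction, at 1.96 on the log2 scale (SE 0.60, edgeR adjusted p = 0.0499). It was called in 9 of 21 alternatives, with an adjusted p between 0.0143 and 0.278, the latter without replicate 3 of Prep-/- M2. Neither cause was tested.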

How the results depend on the processing

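Of 612 alternative values for single members with a test, 556 kept their direction and their side of the threshold. Of 147 without a test, 146 moved by less than the spread between replicates, although Cxcl9 in M1 went under the 1.5-fold limit without replicate 1 of Prep-/- M1 (log2 fold change 0.56), and of 248 alternative counts of members 213 stayed within 1.5 times. In the fit of the compared libraries alone the count of members lower in Prep-/- M2 went from 1 to 0, as it did under glmTreat, and the count lower after LPS in Prep+/- BMDMs went from 0 to 1 (Cxcl14). In that fit 2 rather than 4 members were lower after IL-4 with IL-13 in Prep-/- BMDMs, since Cxcl2 lost its call and Cxcl9 did not pass the filter and was not tested. Under DESeq2 2 members were lower in Prep-/- M0. The genotype difference of the response to IL-4 with IL-13 had 0 members higher and 0 lower under glmTreat and in the fit of the compared libraries. The cause was not tested.

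Leaving out each library gave 2 to 3 members higher and 1 to 3 lower in Prep-/- M0, 0 to 1 lower in Prep-/- M2, 1 to 2 higher by fold alone in Prep-/- M1, 3 to 5 lower after IL-4 with IL-13 in Prep-/- BMDMs, and 0 to 1 higher and 0 to 1 lower in the genotype difference. Some values that were not called changed sign. Leaving out each library, the M2 knockout log2 fold change ranged from -1.22 to 0.54 for Cxcl2 and from -2.35 to 0.23 for Cxcl10, that of Cxcl16 in M1 from -0.18 to 0.04, the response of Cxcl14 to IL-4 with IL-13 in Prep-/- BMDMs from -1.09 to 0.27, and the genotype difference of that response from -0.24 to 1.52 for Cxcl2 and from -0.092 to 0.46 for Cxcl16.

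With a replicate block among the libraries compared, 1 member (Cxcl14) was lower after LPS in Prep+/- BMDMs, 2 were lower after IL-4 with IL-13 in Prep-/- BMDMs and 0 were higher in the genotype difference, in comparisons where the numbers did not pair the libraries. Among the Prep-/- M0 and M2 libraries, Cxcl2 was then not called and Cxcl9 was not tested. With a block over all libraries Cxcl10 was called lower after IL-4 with IL-13 in Prep+/- BMDMs (edgeR adjusted p = 0.0474). Where same-numbered libraries deviated together, the block changed no call of a member but that of Cxcl14 after LPS. At this depth Cxcl5, and Cxcl1, Cxcl3 and Cxcl9 in M0 and M2, rested on a few reads.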
